A study of Rattus norvegicus with 9 samples.

Results

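A pair of adenoviruses was compared directly in cultured heart muscle cells: the 3 libraries labelled Nfya against the 3 labelled Nfe2l1, 6 of the 9 libraries of the series, described across every gene with enough counts. The cells were neonatal rat ventricular myocytes, a primary culture from the ventricles of Sprague Dawley pups 1 or 2 days old, which also carries other cardiac cells. Each well of a 12-well plate received 8 µL of virus in 1 mL of serum-free medium after 48 h in 3% fetal bovine serum, and RNA was taken 48 h later. All 9 libraries, including the 3 of the GFP control virus, share this strain, age, schedule and vector type. The labels give the virus by volume and give neither the number of particles per cell nor the origin of the cDNA it carries. Whether replicate libraries stem from separate cultures is not stated, so p-values measure only how these libraries spread, possibly for technical reasons. The contrast was fitted on the 6 libraries alone. GFP levels are printed beside many genes, though not all, as values without a test. A gene higher with 1 label may therefore be no higher than with GFP.

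NFYA is the regulatory and sequence-specific subunit of NF-Y, a trimer that binds the CCAAT box and is known for its place in the promoters of cell cycle genes. NFE2L1 is a cap'n'collar transcription factor that is made in the membrane of the endoplasmic reticulum. It is extracted by the VCP ATPase, has its sugars removed by NGLY1 and is cut by the protease DDI2, after which it pairs with a small Maf protein and induces proteasome subunit genes. Its relative NFE2L2 shares much of its DNA recognition and is known for antioxidant and detoxification genes.

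The targeted transcripts hardly differed between the groups. Nfya stood at 89.8, 88.8 and 90.2 CPM in the Nfya-labelled and 89.6, 90.3 and 95.1 CPM in the Nfe2l1-labelled libraries, beside 81.2, 81.7 and 77 CPM with GFP. The Nfya groups overlapped and the difference did not pass the test (log2 fold change -0.052 ± 0.036 (SE), adjusted p = 0.368). Nfe2l1 stood at 219, 225 and 229 CPM in the Nfya-labelled and 239, 241 and 233 CPM in the Nfe2l1-labelled libraries, beside 241, 234 and 244 CPM with GFP. All 3 Nfe2l1-labelled libraries lay above all 3 Nfya-labelled ones, but within the range of the GFP libraries or just below it. This difference passed the test (log2 fold change -0.10 ± 0.031 (SE), adjusted p = 0.011), and the call was lost without Nfya replicate 1 (adjusted p = 0.0734), with DESeq2 (adjusted p = 0.0824) and with upper-quartile scaling (adjusted p = 0.057). The groups are therefore called by their labels. Of the other NF-Y subunits, Nfyb had a log2 fold change of 0.092 (adjusted p = 0.129) and Nfyc of 0.028 (adjusted p = 0.641). Of the 3 subunits 0 were called by edgeR and 0 by DESeq2, and 0 had an unadjusted p below 0.05, while Nfyb passed the threshold with upper-quartile scaling (adjusted p = 0.0313) and with limma on log2(RPKM + 1) (0.0403) or log2(RPKM + 0.1) (0.0437).

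The libraries held 6482108, 6541937 and 6660358 counts in Nfya-labelled replicates 1, 2 and 3, and 6492769, 6479766 and 7310774 counts in the Nfe2l1-labelled ones. Of 28935 genes in the count table, 7550 had no count in these 6 libraries, and 13830 passed the filter and were tested, holding 99.77% of the counts. A gene is called at an adjusted p below 0.05 in edgeR's quasi-likelihood test, and every fold change is Nfya-labelled over Nfe2l1-labelled, so that higher and lower refer to the Nfya-labelled group. Levels are given as CPM, the share of a library's total count scaled as the name says. At this threshold 7273 genes, 52.6% of those tested, were called, 3639 higher (26.3%) and 3634 lower (26.3%). DESeq2 called 2217 higher and 2424 lower. The groups did not overlap at 8497 genes (61.4% of those tested), with every Nfya-labelled library above at 4630 (33.5%) and every Nfe2l1-labelled library above at 3867 (28%).

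The largest changes were on the lower side. The median absolute log2 fold change was 0.345 among called genes, and 65.8% of called genes had one under 0.5. A called difference of at least 2-fold was found at 418 higher (3.02%) and 488 lower genes (3.53%), and one of at least 4-fold at 26 higher and 189 lower genes. The difference in reach shows at the bottom of the plot of all tested genes.

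**Figure D1:**
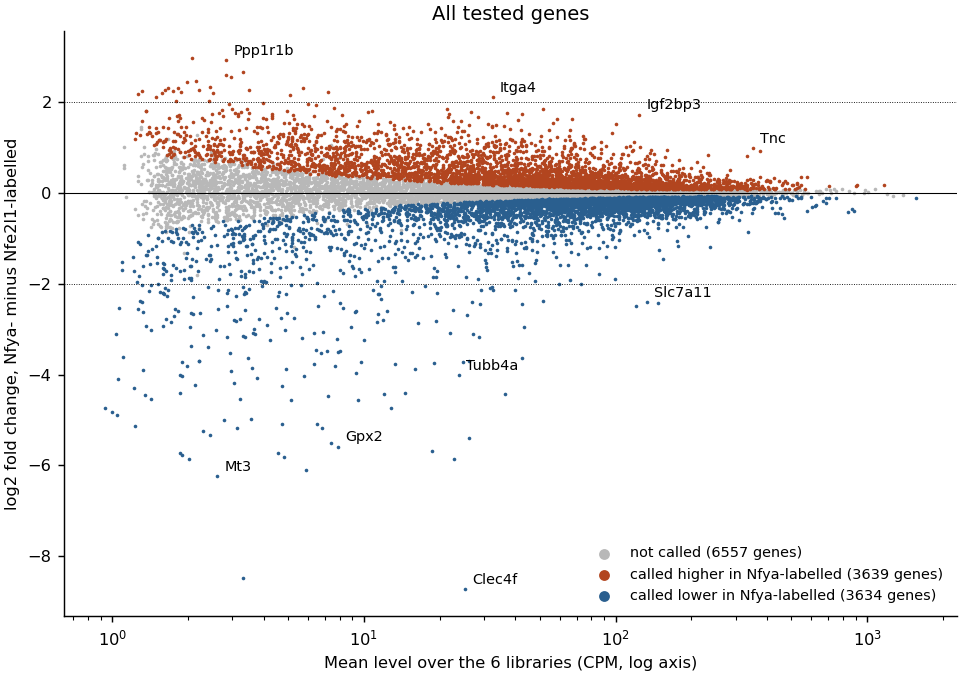
Each point is 1 of the 13830 tested genes, with its mean level over the 6 libraries on a log axis in CPM against its log2 fold change, Nfya-labelled minus Nfe2l1-labelled. Red and blue points are the 3639 genes called higher and the 3634 called lower, and the dotted lines mark 4-fold. The lower side reaches -8.73 (Clec4f), and the highest rise named is 2.92 (Ppp1r1b).

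How densely a gene was covered moved with the size of its difference. Genes with up to 0.1 counts per base of gene length had a median absolute log2 fold change of 0.358, genes between 0.1 and 0.5 had 0.142, and the 761 genes above 0.5 had 0.066. The share called was 50.4%, 56.6% and 30.5% in the same order. In the densest class, replicate libraries of the Nfya-labelled group differed by a chi-square of 0.441 to 0.671 per degree of freedom and those of the Nfe2l1-labelled group by 0.633 to 0.833, less than counting noise alone gives. In the middle class, which held 75.7% of the counts, these values were 0.775 to 0.844 and 0.939 to 1.18. The Nfya-labelled replicates thus lay below counting noise there too. In the sparsest class the values were 1.2 to 1.32 and 1.24 to 1.28. Over all classes together, pairs of Nfya-labelled libraries differed by 0.957 to 0.984 and pairs of Nfe2l1-labelled ones by 1.08 to 1.52. The highest coverage of any gene was 1.47 counts per base (Tnnt2), and 17 genes exceeded 1. The part of this ceiling in the small differences of abundant transcripts, among them sarcomere and proteasome genes, was not tested.

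**Figure D2:**
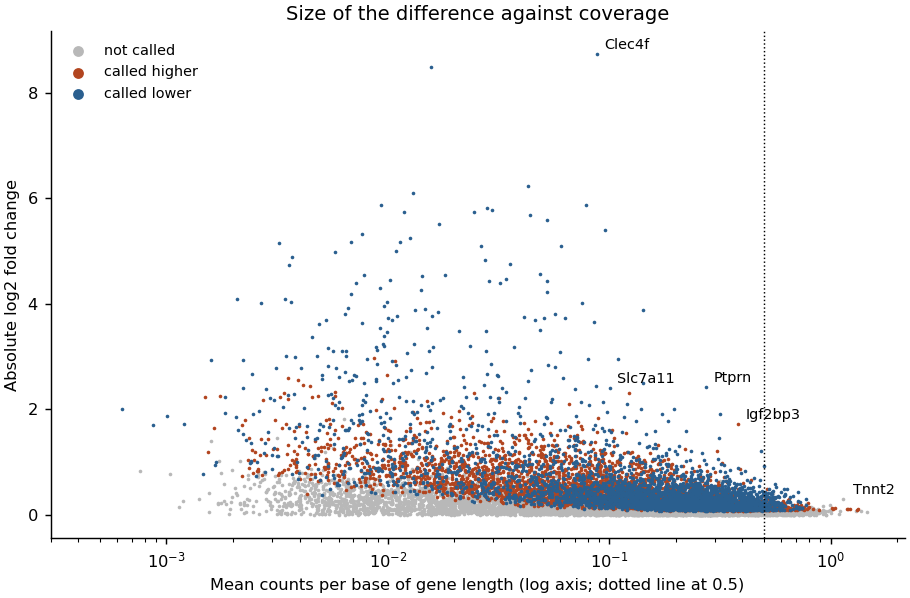
Each point is a tested gene, with its mean counts per base of gene length on a log axis against its absolute log2 fold change. To the right of the dotted line at 0.5 counts per base, where Tnnt2 lies at 1.47, the median absolute difference was 0.066, against 0.358 for genes up to 0.1.

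Genes of cell division were higher with the Nfya label nearly throughout. Of 61 tested genes of the mitotic spindle, kinetochore and cytokinesis, 57 were higher in the Nfya-labelled libraries and 0 lower, with a median log2 fold change of 0.83 beside 0.008 over all tested genes. DESeq2 called 57 higher. Mki67, which encodes a coat protein of mitotic chromosomes and marks cycling cells, stood at 426, 425 and 424 CPM in the Nfya-labelled and 233, 239 and 246 CPM in the Nfe2l1-labelled libraries. The lowest Nfya-labelled library lay far above the highest Nfe2l1-labelled one (log2 fold change 0.81 ± 0.028 (SE), adjusted p = 1.09e-12). Top2a, the topoisomerase that untangles replicated chromosomes, stood at 302, 296 and 305 CPM in the Nfya-labelled and 166, 162 and 170.2 CPM in the Nfe2l1-labelled libraries, again without overlap (log2 fold change 0.84 ± 0.029 (SE), adjusted p = 1.12e-12). The kinetochore motor gene Cenpe was 2.18-fold higher and Cenpf, which encodes a kinetochore protein, 1.92-fold higher. GFP libraries held 286, 304 and 305 CPM of Mki67, between both groups, and 181, 185 and 167 CPM of Top2a, the last of these within the range of the Nfe2l1-labelled libraries. The GFP mean lay between the means of both groups for 45 of the 57 higher mitosis genes, compared with 39.1% of all genes called higher.

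DNA replication and repair genes moved the same way. Of 44 tested genes of replication licensing and the fork, 35 were higher and 2 lower (median 0.51). Mcm10, which helps to activate the replicative helicase, was 2.59-fold higher (95.7 ± 5.48 against 36.4 ± 2.02 CPM, SD, n = 3 each), Pold1, the catalytic subunit of DNA polymerase delta, 2.35-fold, and Wdhd1, which couples helicase and polymerase, 2.02-fold. The helicase subunit gene Mcm5 was 1.67-fold higher. The 2 lower members were Tipin (-0.25), of the fork protection complex, and Prim1 (-0.18), the catalytic primase subunit; members named as the exceptions of a list were chosen after their values were seen. All 19 tested genes of homologous recombination repair were called, 18 higher and 1 lower, with a median of 1.09. Exo1, a nuclease that resects DNA ends, stood at 40.6, 46.3 and 43.7 CPM in the Nfya-labelled and 11.7, 12.7 and 15.6 CPM in the Nfe2l1-labelled libraries. The groups were well apart (log2 fold change 1.68 ± 0.09 (SE), adjusted p = 1.68e-10). Brca2, a gene of recombination repair, was 2.18-fold higher, Fancd2, of the Fanconi anaemia pathway, 2.25-fold and the helicase gene Brip1 2.37-fold. The lower member was Xrcc3 (-0.96). The GFP mean lay between both groups for 31 of 35 higher replication genes and 16 of 18 higher repair genes.

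The regulators of the cycle followed, with exceptions. Of 21 cyclin and cyclin-dependent kinase genes 16 were higher and 3 lower. Ccne1, a cyclin of the G1 to S transition, stood at 90.4, 92 and 94.4 CPM in the Nfya-labelled and 37.4, 34.4 and 42.3 CPM in the Nfe2l1-labelled libraries. The Nfya-labelled libraries lay above GFP (62.2, 59.9 and 57.4 CPM) and the Nfe2l1-labelled ones below it (log2 fold change 1.25 ± 0.054 (SE), adjusted p = 1.36e-11). Ccne2 was 1.9-fold and the mitotic kinase gene Cdk1 1.78-fold higher. In the opposite direction the phosphatase gene Cdc25b, which activates cyclin-dependent kinases at mitotic entry, was 1.95-fold higher in the Nfe2l1-labelled libraries (51.4 ± 1.74 against 98.9 ± 3.5 CPM, SD, n = 3 each), and Cdc25c (-0.40) and Cdk7 (-0.17) were lower as well, of which Cdk7 lost its call without Nfe2l1 replicate 1 or Nfya replicates 1 or 3. Among 21 genes of E2F, FoxM1, Myb and pocket proteins, 13 were higher and 4 lower. E2f7, an atypical E2F that represses E2F targets, stood at 57.5, 58.9 and 55.4 CPM in the Nfya-labelled and 17.7, 15.7 and 16.4 CPM in the Nfe2l1-labelled libraries, well apart (log2 fold change 1.77 ± 0.065 (SE), adjusted p = 1.84e-12). Its partner E2f8 was 3.06-fold higher and Foxm1, an activator of mitotic genes, 2.12-fold. The 4 lower members were Lin37 (-0.54), Lin54 (-0.48), E2f5 (-0.48) and Rbl2 (-0.33). Of 7 inhibitors of cyclin-dependent kinases, 2 were higher (Cdkn3 0.37, Cdkn2c 0.21) and 1 lower (Cdkn2b -0.23), and Cdkn1a was at 0.0009 with an adjusted p of 0.985. Both Cdkn2b and Cdkn2c lost their call with DESeq2, and Cdkn2c also without Nfe2l1 replicates 2 or 3 or Nfya replicates 1 or 3.

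Nucleotide supply was mixed. Of 13 tested genes 6 were higher and 3 lower. Rrm2, a subunit of ribonucleotide reductase, was 1.59-fold, the salvage kinase gene Dck 1.7-fold and Tyms, which makes thymidylate, 1.34-fold higher. Samhd1, an enzyme that breaks down deoxynucleotides, stood at 12.3, 11.8 and 12.5 CPM in the Nfya-labelled and 52.5, 50.8 and 55.1 CPM in the Nfe2l1-labelled libraries. The Nfya-labelled libraries lay a little below GFP (16.8, 15.8 and 15.4 CPM) and the Nfe2l1-labelled ones far above it (log2 fold change -2.13 ± 0.07 (SE), adjusted p = 5.01e-13). Dut (-0.25) and Cmpk1 (-0.15) were the other lower members. DESeq2 called 1 of the 3, and Dut lost its call without Nfe2l1 replicates 1 or 2 or Nfya replicate 2.

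Cell type markers moved beside the division genes. The summed level of 16 fibroblast markers was 2280 to 2314 CPM in the Nfya-labelled, 1950 to 2041 CPM in the Nfe2l1-labelled and 1291 to 1350 CPM in the GFP libraries. That of 14 smooth muscle and pericyte markers was 1658 to 1678 CPM, 1199 to 1225 CPM and 1484 to 1512 CPM in the same order, and that of 11 cardiomyocyte markers 3490 to 3547 CPM, 3153 to 3401 CPM and 3302 to 3604 CPM. The defining cardiomyocyte markers were abundant in all 9 libraries, and of the fibroblast and smooth muscle markers none was at 0 in the 6 compared. In bulk RNA, more cells of a type and more RNA per cell cannot be told apart. The part of fibroblasts and pericytes in the division genes was not tested.

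**Figure D3:**
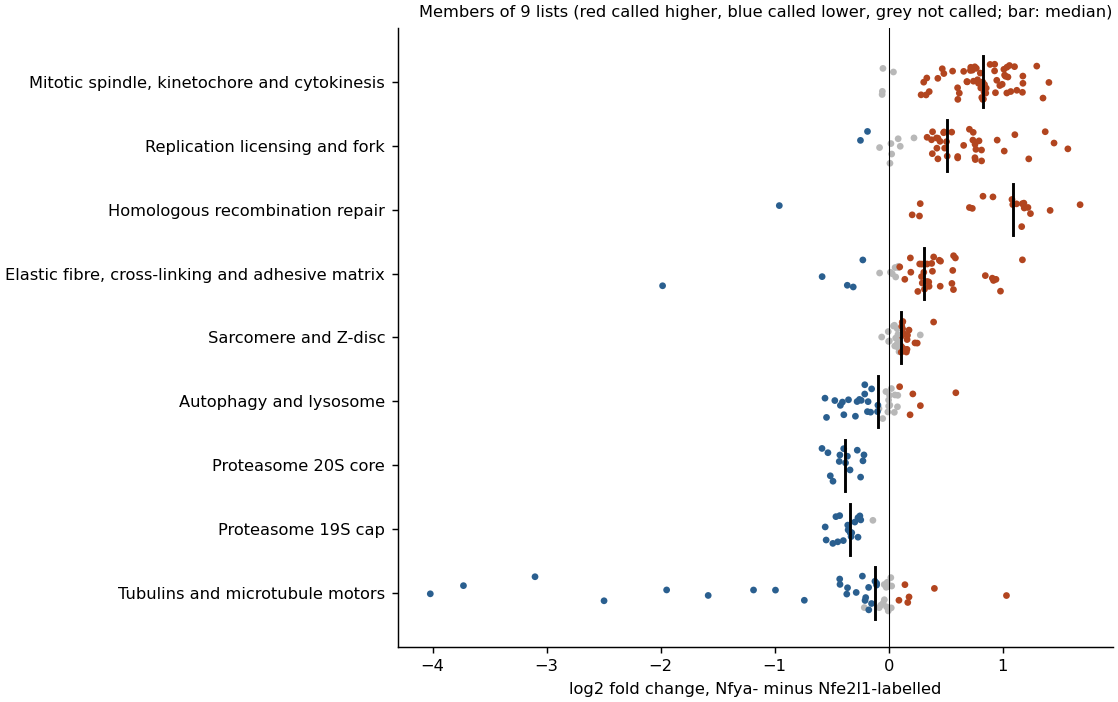
Each point is a tested member of 1 of 9 gene lists, placed by its log2 fold change, Nfya-labelled minus Nfe2l1-labelled, with the list's median as a bar. Mitosis, replication and recombination genes lie mostly to the right (medians 0.83, 0.51 and 1.09), all 20S proteasome genes to the left (median -0.39), and 6 tubulin and motor genes reach below -1.5.

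Promoters were searched because NF-Y binds the letters CCAAT. Of 9452 tested genes with an entry in RefSeq's 300-base promoter windows (250 bases before and 50 after the gene start, GRCr8 build), 37.6% held CCAAT on either strand, as did 37.8% of genes called higher and 38% of genes called lower. Among genes called at least 2-fold, 40.7% of the higher (114 of 280) and 32.6% of the lower ones (111 of 340) held it, which was not tested. The share was 71.7% for mitosis genes (38 of 53), 59% for replication genes (23 of 39) and 46.7% for recombination genes (7 of 15), but also 69.2% for genes of the 20S proteasome (9 of 13), which were lower. The windows of 3 division genes named above and 2 of the proteasome's 20S core are shown from 15 bases before the first to 15 bases after the last match, or to the edge of the 250 bases before the gene start, with each CCAAT or its reverse complement ATTGG in capitals. Coordinates are GRCr8, and the sequences are RefSeq's, read 5′ to 3′ on the gene's strand.
Mki67 (chr1:199952668-199952797, minus strand): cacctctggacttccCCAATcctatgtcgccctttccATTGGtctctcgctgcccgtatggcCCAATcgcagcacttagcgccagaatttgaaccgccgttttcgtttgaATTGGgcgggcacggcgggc
Top2a (chr10:84473131-84473343, minus strand): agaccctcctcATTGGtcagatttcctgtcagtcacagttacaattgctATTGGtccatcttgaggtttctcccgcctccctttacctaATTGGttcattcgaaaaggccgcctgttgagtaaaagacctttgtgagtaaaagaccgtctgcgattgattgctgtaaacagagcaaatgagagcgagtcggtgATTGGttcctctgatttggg
Cenpf (chr13:103760937-103761032, minus strand): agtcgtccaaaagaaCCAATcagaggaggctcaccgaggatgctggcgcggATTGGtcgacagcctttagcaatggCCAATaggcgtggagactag
Psmb3 (chr10:83193707-83193782, plus strand): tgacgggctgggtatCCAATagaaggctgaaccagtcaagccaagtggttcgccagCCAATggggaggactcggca
Psma5 (chr2:198584420-198584483, plus strand): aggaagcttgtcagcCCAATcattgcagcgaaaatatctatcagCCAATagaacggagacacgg
In the 250 bases before the start, Mki67 and Top2a each held 4 matches and Cenpf 3, and Psmb3 and Psma5 each held 2. A match is a run of letters and not a measured binding site.

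Proteasome genes were lower nearly throughout in the Nfya-labelled libraries, that is, higher with the Nfe2l1 label. All 14 tested genes of the 20S core, the barrel that cuts proteins, were lower (median -0.39), as were 18 of 19 genes of the 19S cap, which receives and unfolds ubiquitin-tagged proteins (median -0.34). DESeq2 called 13 and 18 of them. The core subunit gene Psmb3 stood at 57.2, 55.8 and 55.1 CPM in the Nfya-labelled and 83.8, 85.7 and 79.9 CPM in the Nfe2l1-labelled libraries. All 3 Nfe2l1-labelled libraries lay above all 3 Nfya-labelled ones (log2 fold change -0.58 ± 0.045 (SE), adjusted p = 1.57e-08). The cap subunit gene Psmd11 stood at 157, 153 and 151 CPM in the Nfya-labelled and 226, 226 and 218 CPM in the Nfe2l1-labelled libraries, also apart (log2 fold change -0.56 ± 0.033 (SE), adjusted p = 4.89e-10). Psmd14, the cap's deubiquitinase, was 1.46-fold and the ATPase gene Psmc5 1.4-fold higher with the Nfe2l1 label. The remaining cap gene, Sem1, had a log2 fold change of -0.14 (adjusted p = 0.129). The differences ranged from -0.22 to -0.58 in the core, and 9 of its 14 genes were covered by more than 0.5 counts per base. GFP means lay between both groups for 14 of 14 core and 17 of 18 cap genes, compared with 46.1% of all genes called lower. For Psmb3 the GFP libraries held 59.3, 60.9 and 62.1 CPM, and for Psmd11 176, 174 and 182 CPM.

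Proteasome helpers and the enzymes that process NFE2L1 itself leaned the same way. Of 14 activators and assembly factors 9 were lower and 0 higher, with the shuttle genes Ubqln2 (-0.55) and Ubqln1 (-0.36), the assembly chaperone gene Psmd5 (-0.49) and the inhibitor gene Psmf1 (-0.45) among them. Of 23 genes of NFE2L1 processing and ER-associated degradation 10 were lower and 3 higher. Ufd1 (-0.51) and Nploc4 (-0.41), the cofactors that direct VCP to ubiquitin-tagged proteins, and Ubxn4 (-0.52) and Faf2 (-0.50), which recruit VCP to the membrane of the endoplasmic reticulum, were lower. The higher members were Herpud1 (0.26), Edem3 (0.14) and Os9 (0.10), the last without a call when Nfe2l1 replicate 1 or any Nfya replicate was left out. Ngly1, which removes the sugars of NFE2L1, was lower (-0.52), while Ddi2, the protease that cuts it, had -0.029 with an adjusted p of 0.508. Of the 8 tested cap'n'collar, Bach, small Maf and Keap1 genes 6 were lower and 0 higher, where DESeq2 called 3. The small Maf genes Maff (2.07-fold) and Mafg (1.55-fold) and Keap1 (1.46-fold), the adaptor that marks NFE2L2 for degradation, were higher with the Nfe2l1 label. Genes of the immunoproteasome and of class I presentation were mixed, with 2 higher (Psmb9 0.56, Tap1 0.28) and 3 lower (Nlrc5 -1.66, Psmb10 -0.42, Tapbp -0.42) of 13. The share called was 38.5%, beside 52.6% of all tested genes.

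Cystine import and glutathione genes held a few large differences among many small ones. Of 17 tested genes 7 were lower and 3 higher. Slc7a11, which imports cystine for the making of glutathione, stood at 40.9, 45.7 and 41.7 CPM in the Nfya-labelled and 218, 221 and 231 CPM in the Nfe2l1-labelled libraries. The Nfe2l1-labelled libraries lay far above GFP (60.4, 67.7 and 51.1 CPM) and the Nfya-labelled ones below it (log2 fold change -2.40 ± 0.04 (SE), adjusted p = 4.87e-16). Gclm, the modifier subunit of the first enzyme of glutathione synthesis, was 1.8-fold higher with the Nfe2l1 label (56 ± 2.19 against 99.5 ± 0.927 CPM, SD, n = 3 each), beside 90.6, 87.4 and 89.1 CPM with GFP. The catalytic subunit gene Gclc had 0.048 (adjusted p = 0.229). Gss, the second enzyme (-0.65), and Gsr, which recycles oxidised glutathione (-0.53), were lower. The higher members were Ggt7 (0.83), Oplah (0.40) and Mtr (0.21), where the Ggt7 call was lost without Nfe2l1 replicates 2 or 3 or Nfya replicates 1 or 3.

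Peroxidase and detoxification genes also held some large differences. Gpx2, a glutathione peroxidase known from the gut epithelium, stood at 0.308, 0.153 and 0.45 CPM in the Nfya-labelled and 17.6, 14.5 and 14.2 CPM in the Nfe2l1-labelled libraries, from 6 counts in all against 312 (log2 fold change -5.59 ± 0.28 (SE), adjusted p = 7.97e-11). The GFP libraries held 1.22, 0.885 and 0.875 CPM of it, closer to the Nfya-labelled ones. Glrx, a glutaredoxin that reduces glutathione-bound proteins, was 2.39-fold, Osgin1, an oxidative stress response gene, 2.16-fold and the peroxiredoxin gene Prdx5 1.4-fold higher with the Nfe2l1 label. For Osgin1 the GFP mean of 80.4 CPM lay above both groups (36.4 CPM Nfya-labelled and 77.6 CPM Nfe2l1-labelled). In all, 7 of 25 genes of this list were lower and 4 higher (Sod3 0.36, Prdx4 0.34, Gpx7 0.27, Sesn2 0.25), with a median of -0.032. The share called lower was thus near the 26.3% of all tested genes called lower. Of 30 xenobiotic defence genes 15 were lower and 5 higher. Aldehyde oxidase Aox1 was 5.19-fold (16.8 ± 1.75 against 86.1 ± 4.73 CPM, SD, n = 3 each), the carbonyl reductase gene Cbr3 2.08-fold and the aldo-keto reductase gene Akr1b8 1.47-fold higher with the Nfe2l1 label. Reads of near-identical glutathione transferase, oxidase and aldo-keto reductase genes may be split between copies, so these members are uncertain. Nqo1, a widely used marker of NFE2L2 activity, had a log2 fold change of -0.20 (adjusted p = 3.20e-04). The 5 higher members were Abcg2 (1.18), Ephx1 (0.27), Nqo2 (0.24), Ephx2 (0.19) and Cyp1b1 (0.17), where the Ephx2 call was lost without Nfe2l1 replicate 1 or Nfya replicate 1.

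Heme, NADPH and metal genes completed this group. Of 18 heme and iron genes 8 were lower and 1 higher (Tfrc, the transferrin receptor, 0.15). Hmox1, which opens the heme ring, stood at 87.8, 79.6 and 77.9 CPM in the Nfya-labelled and 156, 160.3 and 146 CPM in the Nfe2l1-labelled libraries, and here the GFP libraries (159, 154 and 165 CPM) lay with the Nfe2l1-labelled ones (log2 fold change -0.93 ± 0.049 (SE), adjusted p = 1.38e-10). Blvrb, a biliverdin reductase, was 1.61-fold and the porphyrin transporter gene Abcb6 1.44-fold higher with the Nfe2l1 label. Of 19 NADPH genes 9 were lower and 5 higher. Aldh1l1, a cytosolic folate enzyme that yields NADPH, was 4.11-fold higher with the Nfe2l1 label (6.91 ± 0.975 against 28.1 ± 2.17 CPM, SD, n = 3 each), while the mitochondrial folate enzyme genes Mthfd1l (2.25-fold) and Mthfd2 (1.56-fold) were higher with the Nfya label. Of 12 zinc and metallothionein genes 6 were lower and 3 higher. The brain-type metallothionein gene Mt3 had 1 count in the Nfya-labelled libraries against 105, a ratio of 102 with a 95% exact interval of 17.9 to 4063, and 0 CPM in each GFP library. The zinc importer gene Slc39a8 was 2.23-fold higher with the Nfe2l1 label and Slc39a10 1.28-fold higher with the Nfya label.

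The letters TGACNNNGC, the core to which cap'n'collar factors and small Maf proteins bind, were in the promoter windows of 15% of tested genes on either strand. They were in 12.8% of those called higher and 19.1% of those called lower. Among lists with more lower than higher calls, the share was 31.6% for peroxidase genes (6 of 19), 30.8% for the 20S core (4 of 13), 18.8% for the 19S cap (3 of 16), 15.4% for proteasome activators (2 of 13), 15% for xenobiotic defence (3 of 20) and 8.33% for cystine and glutathione genes (1 of 12). It was 15.1% for mitosis and 15.4% for replication genes. Of 28 named genes of the mitosis, proteasome, glutathione, peroxidase and xenobiotic lists, 3 had no entry, 15 held neither CCAAT nor these letters in the 250 bases before the gene start, and 3 held TGACNNNGC or its reverse complement GCNNNGTCA there. These 3 are shown, Gpx2 and Gclm, which were higher with the Nfe2l1 label, and Cenpe, which was higher with the Nfya label, with the matches in capitals, and Gpx2 and Cenpe held a CCAAT match as well.
Gpx2 (chr6:101230034-101230176, minus strand): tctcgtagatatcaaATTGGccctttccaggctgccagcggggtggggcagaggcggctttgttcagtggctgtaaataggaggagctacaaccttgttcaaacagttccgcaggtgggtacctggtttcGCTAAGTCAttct
Gclm (chr2:213031948-213031986, plus strand): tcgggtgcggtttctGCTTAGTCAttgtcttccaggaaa
Cenpe (chr2:226310946-226310994, plus strand): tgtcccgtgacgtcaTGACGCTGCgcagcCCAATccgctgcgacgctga
Slc7a11 was among the genes with neither run of letters. That says only that the letters are not in the 250 bases before its start.

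Lysosome and amino acid genes leaned in opposite directions, while chaperone genes were called about as often as all tested genes. Of 37 autophagy and lysosome genes 19 were lower and 5 higher (median -0.094). Ulk1, the kinase that starts autophagy, was 1.47-fold, Atg14, a subunit of the lipid kinase complex that follows it, 1.46-fold and Wipi2, which binds the lipid made there, 1.39-fold higher with the Nfe2l1 label. The higher members were Ctsk (0.59), Neu1 (0.28), Atg7 (0.21), Tfeb (0.19) and Hexa (0.10), of which DESeq2 called 2. This count was 3 without Nfe2l1 replicate 2, Nfya replicate 2 or Nfya replicate 3. Of 31 genes of the ATF4 and amino acid response 15 were higher and 5 lower. Shmt1, a serine hydroxymethyltransferase, was 1.99-fold, Psat1, of serine synthesis, 1.75-fold and the arginine importer gene Slc7a1 1.6-fold higher. For Shmt1 the GFP mean of 53.5 CPM lay above both groups (46.3 CPM Nfya-labelled and 23.1 CPM Nfe2l1-labelled). The lower ones were Cebpb (-0.43), Trib3 (-0.27), Gdf15 (-0.22), Wars (-0.13) and Eprs (-0.11). Cytosolic heat shock genes divided into 7 higher and 9 lower of 29, with Hspa4l 1.75-fold and Hspa2 1.42-fold higher and the master regulator Hsf1 lower (-0.26). For Hspa4l the GFP mean of 66.3 CPM lay above both groups (46.7 CPM Nfya-labelled and 26.4 CPM Nfe2l1-labelled). The heat-inducible chaperone gene Hspa1b was called lower (-1.71), but its libraries overlapped, at 17.6, 16.5 and 11 CPM in the Nfya-labelled and 43.9, 11 and 85.5 CPM in the Nfe2l1-labelled libraries, beside 248, 154 and 49.9 CPM with GFP, and its reads may be shared with a near-identical copy. The 7 higher calls fell to 4 without Nfe2l1 replicate 3 or Nfya replicate 3, and to 4 with DESeq2. ER chaperone and unfolded protein response genes divided into 7 higher and 9 lower of 31, with the sensor gene Atf6 lower (-0.42) and the oxidase gene Ero1a higher (0.29). DESeq2 called 4 and 7 of them. In both chaperone lists the shares lay near the 26.3% of all tested genes called in each direction, with medians of -0.015 (cytosolic) and 0.001 (ER).

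Microtubule genes of nerve cells held some of the largest differences of the contrast. Of 43 tubulin and motor genes 23 were lower and 6 higher. Kif1a, a kinesin that carries synaptic vesicle precursors in axons, stood at 38.1, 35.2 and 37.1 CPM in the Nfya-labelled and 194, 206 and 214 CPM in the Nfe2l1-labelled libraries. The GFP libraries (23.1, 24.2 and 20.5 CPM) lay below both groups, and the Nfe2l1-labelled libraries lay far above (log2 fold change -2.50 ± 0.047 (SE), adjusted p = 1.05e-15). The tubulin isotype gene Tubb4a stood at 2.78, 2.6 and 3 CPM in the Nfya-labelled and 43, 45.4 and 46.6 CPM in the Nfe2l1-labelled libraries, equally apart (log2 fold change -4.02 ± 0.11 (SE), adjusted p = 4.38e-14). Dync1i1, an intermediate chain of dynein, was 13.3-fold, the neuronal kinesin gene Kif5c 8.58-fold and the neuronal tubulin gene Tubb3 2.99-fold higher with the Nfe2l1 label. Of their widely expressed relatives, picked after their values were seen, Kif5b had -0.038 (adjusted p = 0.375) and Tubb4b -0.069 (adjusted p = 0.187). Kif1b, a relative of Kif1a, was lower (log2 fold change -0.36, adjusted p = 2.69e-08). Tubulin isotypes are close in sequence, so how reads were shared among them is uncertain. Ptprn, a protein of dense-core secretory vesicles, stood at 48.9, 44.6 and 46.8 CPM in the Nfya-labelled and 246, 258 and 241 CPM in the Nfe2l1-labelled libraries, beside 36.7, 37.5 and 29.2 CPM with GFP. Its groups were as far apart as those of Kif1a (log2 fold change -2.42 ± 0.045 (SE), adjusted p = 1.05e-15). Of 5 tested Schwann and neural markers 3 were lower (Tubb3 -1.58, S100b -1.42, Prph -0.88) and 1 higher (Ngfr 0.75). The Ngfr call was lost with DESeq2 (adjusted p = 0.0971). All 8 markers of this list, tested or not, summed to 60.7 to 64 CPM with the Nfya label, 124 to 129.7 CPM with the Nfe2l1 label and 50.2 to 57.2 CPM with GFP. The part of neural cells in these differences was not tested.

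Most of the largest falls were of genes near 0 in the GFP libraries as well. Clec4f, a lectin known from liver macrophages, had 2 counts in the Nfya-labelled libraries against 1022 (0, 0.153 and 0.15 CPM in the Nfya-labelled and 47, 51.7 and 52.2 CPM in the Nfe2l1-labelled libraries), a ratio of 496 with a 95% exact interval of 137 to 4100, and was at 0 in all 3 GFP libraries. Crisp3, a secreted protein known from glands, had 0 counts against 135, at least 43.7-fold higher with the Nfe2l1 label if 3 counts over the whole group are taken as the floor. Serpinb3a, a protease inhibitor of epithelia, had 3 counts against 193, a ratio of 62.4 (95% exact interval 21.1 to 305), and Cym, the stomach protease chymosin, 3 against 182 (58.9, 19.8 to 288). These intervals cover counting error only. Syt2, a calcium sensor of synaptic vesicles, had 3 counts against 124 (40.1, 13.4 to 197) and Lrrc15, a membrane protein known from fibroblasts, 3 against 110 (35.6, 11.9 to 175). Among those with more counts, Lexm had a log2 fold change of -5.86, the chloride channel accessory gene Clca4 -5.67, the ceramide synthase gene Cers3 -5.51, the RNA-binding protein gene Rbm11 -5.39, the leukocyte surface gene Cd52 -5.10, the germ line helicase gene Tdrd9 -4.98 and the carrier gene Slc10a4 -4.57. Of these, Lexm (10.4, 9.58 and 10.3 CPM), Rbm11 (3.06, 3.39 and 3.68 CPM) and Slc10a4 (3.67, 4.72 and 3.5 CPM) had reads in every GFP library, below the Nfe2l1-labelled and above the Nfya-labelled ones. For Cd52 and the other leukocyte genes, 8 macrophage and leukocyte markers were tested, 1 higher (Lyz2) and 2 lower (Csf1r and Cd14). The share called was 37.5%, beside 52.6% of all tested genes. The 14 such markers found in the count table, tested or not, summed to 107 to 118 CPM against 110 to 126 CPM, and the T cell marker Cd3e was at 0. The Lyz2 call was lost with DESeq2 and without Nfe2l1 replicates 1 or 3 or Nfya replicates 1 or 2 (adjusted p = 0.061 to 0.183).

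The largest rises were smaller, and each of the 15 had reads in all 6 libraries. Ppp1r1b, a phosphatase inhibitor known from dopamine-responsive neurons, stood at 4.47, 6.11 and 4.5 CPM in the Nfya-labelled and 0.616, 0.463 and 0.821 CPM in the Nfe2l1-labelled libraries (log2 fold change 2.92 ± 0.32 (SE), adjusted p = 7.96e-07). The GFP libraries (6.27, 4.87 and 5.43 CPM) lay with the Nfya-labelled ones. Itga4, an integrin subunit for fibronectin and VCAM1, stood at 51.7, 53.6 and 53.3 CPM in the Nfya-labelled and 12.8, 10.7 and 13 CPM in the Nfe2l1-labelled libraries, beside 16.2, 15.2 and 15.8 CPM with GFP, and here the Nfya-labelled libraries stood alone (log2 fold change 2.10 ± 0.073 (SE), adjusted p = 1.03e-12). Igf2bp3, a fetal RNA-binding protein, stood at 192, 192 and 189.9 CPM in the Nfya-labelled and 57.9, 53.7 and 60.5 CPM in the Nfe2l1-labelled libraries, beside 74, 77.5 and 74.6 CPM with GFP. It too was apart in every Nfya-labelled library (log2 fold change 1.72 ± 0.037 (SE), adjusted p = 5.53e-15). Tp73, a relative of p53, was 4.78-fold, the transcription factor gene Myb 4.48-fold, the angiotensin receptor gene Agtr2 3.94-fold and the homeobox gene Meox2 3.79-fold higher. Shisa3 (2.65), Tmem229a (2.55), Lrr1 (2.22), Plk5 (1.86), the pentraxin gene Nptx1 (1.84), Rtl3 (1.84), Scara3 (1.80) and Lrrc17 (1.78) completed the 15.

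**Figure D4:**
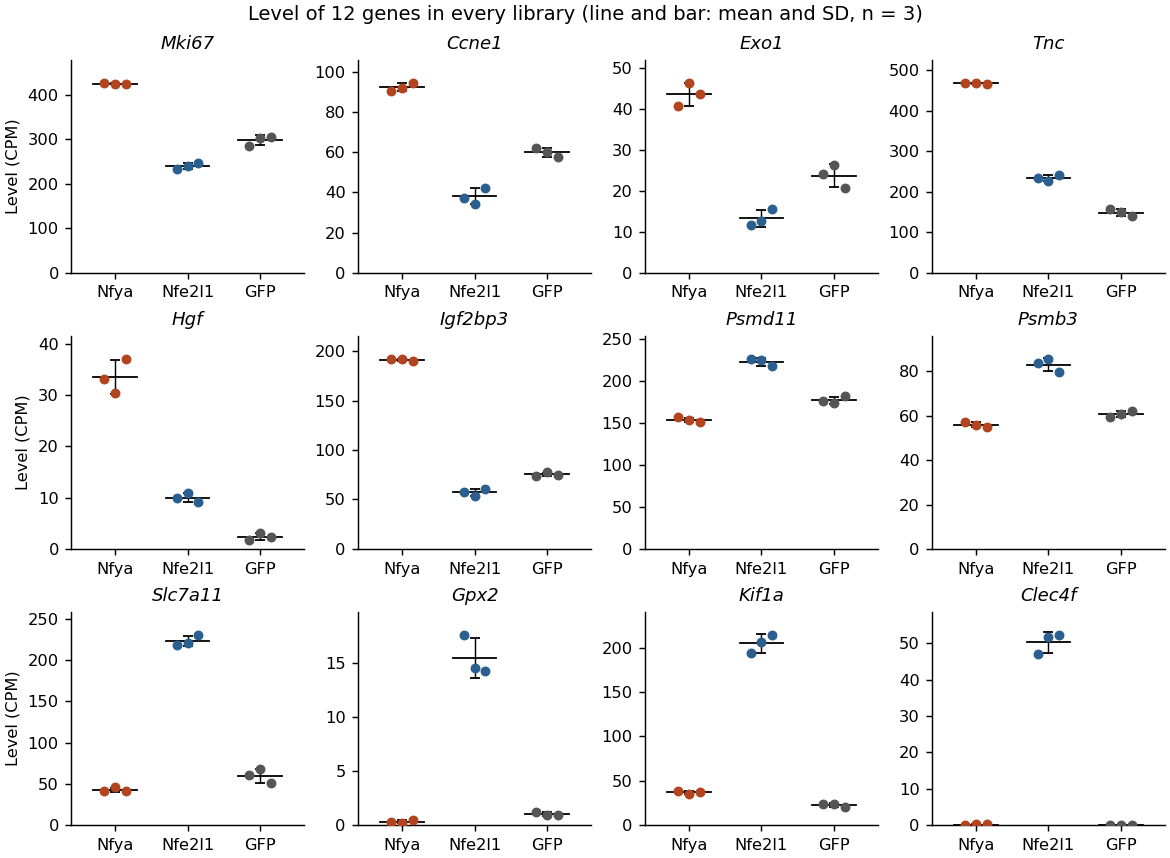
Each panel plots 1 gene in all 9 libraries, 3 per label, in CPM from 0, with the mean as a line and the SD as a bar. Mki67, Ccne1, Exo1, Psmd11 and Psmb3 have GFP between both groups, Hgf and Tnc have GFP below both, and Clec4f, Gpx2, Kif1a and Slc7a11 are high in the Nfe2l1-labelled libraries.

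Extracellular matrix genes were higher with the Nfya label in most lists. Of 44 genes of elastic fibres, cross-linking and adhesive matrix 32 were higher and 5 lower (median 0.31). The adhesive glycoprotein gene Tnc stood at 469, 469 and 466 CPM in the Nfya-labelled and 234, 226 and 242 CPM in the Nfe2l1-labelled libraries, beside 157, 149 and 139.9 CPM with GFP. Both groups lay above GFP and did not overlap (log2 fold change 0.98 ± 0.029 (SE), adjusted p = 1.28e-13). Vcan, a large proteoglycan of the developing heart, was 1.89-fold higher (494 ± 12.4 against 258 ± 8.65 CPM, SD, n = 3 each), the fibrillin genes Fbn2 1.92-fold and Fbn1 1.26-fold and the small proteoglycan gene Lum 1.88-fold. The lower members were Comp (-1.98), Efemp2 (-0.58), Loxl1 (-0.36), Efemp1 (-0.31) and Ltbp3 (-0.23). Of 27 collagen genes 19 were higher, among them Col8a2 (2.05-fold), Col8a1 (1.39-fold), Col12a1 (1.27-fold) and Col4a4 (1.24-fold), and 1 was lower (Col7a1 -0.49), or 3 without Nfe2l1 replicate 2. The main fibrillar chain gene Col1a1 had 0.078 (adjusted p = 0.0933). For 15 of the 19 higher collagens and 22 of the 32 higher matrix genes the GFP mean lay below both groups, compared with 27.9% of all genes called higher.

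Proteases, receptors and growth factors of the matrix were likewise mostly higher. Of 25 metalloproteinase and inhibitor genes 16 were higher and 6 lower. Mmp16 was 2.15-fold, and Adamts5, which cuts proteoglycans, 1.97-fold higher, while Mmp19 was 1.95-fold higher with the Nfe2l1 label. Of 19 integrin genes 13 were higher, with Itga8 2.38-fold and Itgb8 2.22-fold after Itga4, and 2 lower (Itga10 -0.60, Itga3 -0.12). Of 37 TGF-beta and BMP genes 20 were higher and 4 lower (Bmp6 -0.66, Bmp5 -0.25, Bmp2 -0.22, Smad4 -0.11), and the lower calls fell to 2 without Nfe2l1 replicate 1 or Nfya replicate 3. The BMP antagonist gene Grem1 stood at 79.1, 76.3 and 87.2 CPM in the Nfya-labelled and 28, 19.3 and 19.8 CPM in the Nfe2l1-labelled libraries, beside 34.5, 24.2 and 25.2 CPM with GFP, and the Nfya-labelled libraries stood alone (log2 fold change 1.84 ± 0.092 (SE), adjusted p = 7.08e-11). Of 41 paracrine growth factor genes 24 were higher, where DESeq2 called 15, and 1 was lower (Fgf9 -0.34, with overlapping libraries). The Fgf9 call was lost with DESeq2 and without Nfe2l1 replicate 3 or Nfya replicate 3. Hgf, a mitogen made by mesenchymal cells, stood at 33.2, 30.4 and 37.1 CPM in the Nfya-labelled and 9.86, 11 and 9.16 CPM in the Nfe2l1-labelled libraries, with GFP at 1.68, 3.1 and 2.28 CPM, below both (log2 fold change 1.73 ± 0.10 (SE), adjusted p = 5.91e-10). Angptl4 was 2.52-fold, Gdf6 2.14-fold and the chemokine gene Cxcl12 2.06-fold higher.

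Markers of mesenchymal cells moved with the matrix genes. Of 16 fibroblast markers 11 were higher and 0 lower (median 0.30), with Pdgfra 1.34-fold, Postn 1.24-fold and Dcn 1.22-fold higher, and for 11 of those 11 GFP lay below both groups. Of 12 smooth muscle and pericyte markers 11 were higher and 0 lower (median 0.54). Smooth muscle myosin Myh11 stood at 195, 201 and 203 CPM in the Nfya-labelled and 117, 113 and 114 CPM in the Nfe2l1-labelled libraries, apart in every library (log2 fold change 0.78 ± 0.032 (SE), adjusted p = 6.69e-12), and the contractile gene Cnn1 was 1.83-fold, the receptor gene Pdgfrb 1.56-fold and Cspg4 1.42-fold higher. Of 13 endothelial markers 5 were higher and 3 lower, with Esam 1.77-fold higher, Egfl7 2.54-fold higher with the Nfe2l1 label and Cldn5 at 0; DESeq2 called 2 and 3. The 15 endothelial markers found in the count table, tested or not, summed to 494 to 514 CPM against 507 to 558 CPM. Of 11 tested epicardial and mesothelial markers 3 were lower (Krt8 -1.59, Msln -0.96, Upk1b -0.31) and 1 higher (Aldh1a2 0.58). All 12 markers of this list summed to 225 to 249 CPM against 307 to 322 CPM. Called in either direction were 61.5% of the endothelial and 36.4% of the epicardial and mesothelial markers, beside 52.6% of all tested genes. No erythroid marker had enough counts to be tested. The part of these cells in the matrix and growth factor differences was not tested.

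Genes of the contractile apparatus differed in 1 direction but by little. Of 33 sarcomere and Z-disc genes 17 were higher and 0 lower, with a median of 0.11. DESeq2 called 9, as did edgeR without Nfe2l1 replicate 3, and 25 of the 33 were covered by more than 0.5 counts per base. Myh6, the alpha myosin heavy chain, stood at 396, 402 and 403 CPM in the Nfya-labelled and 333, 353 and 324 CPM in the Nfe2l1-labelled libraries, with GFP at 356, 332 and 378 CPM (log2 fold change 0.23 ± 0.034 (SE), adjusted p = 2.60e-05). The groups did not overlap, and the GFP libraries lay below all Nfya-labelled ones. Lmod3, which nucleates actin, was 1.31-fold and the M-band gene Myom1 1.19-fold higher. Troponin T, Tnnt2, stood at 275, 270.1 and 273 CPM against 266, 272 and 243 CPM, overlapping, with an adjusted p of 0.301. Of 11 cardiomyocyte markers 2 were called, both higher (Myh6 and Myl3), and 7 without Nfe2l1 replicate 2. Myl3 lost its call without Nfe2l1 replicate 3, without Nfya replicates 1 or 2, and with DESeq2.

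Other heart genes showed single large differences. Called in either direction were 56.5% of fetal and stress genes, 50% of lineage factors, 55.9% of calcium handling and 54.8% of channel genes. These shares lay near the 52.6% of all tested genes. Of 23 fetal and stress genes 10 were higher and 3 lower. DESeq2 called 2 and 2, and without Nfe2l1 replicate 3 edgeR called 5 higher. The natriuretic peptide gene Nppa had 0.085 (adjusted p = 0.0765), while Uchl1, a neuronal deubiquitinase, was 2.32-fold and the transcription factor gene Runx1 1.52-fold higher with the Nfe2l1 label. Of 26 cardiac lineage factors 9 were higher and 4 lower, where DESeq2 called 5 and 2. Foxp1 was 1.5-fold higher, and the progenitor gene Isl1 was 3.59-fold higher with the Nfe2l1 label (1.47 ± 0.597 against 5.28 ± 0.539 CPM, SD, n = 3 each). Of 34 calcium handling genes 16 were higher and 3 lower. The T-type channel gene Cacna1g was 1.35-fold and the sarcoplasmic reticulum gene Asph 1.31-fold higher, while the plasma membrane pump gene Atp2b4 was 1.43-fold higher with the Nfe2l1 label. Of 31 potassium and sodium channel and connexin genes 14 were higher and 3 lower (Scn10a -2.99, Kcnn3 -1.04, Kcnk3 -0.22). The conduction connexins Gja5 (1.52-fold) and Gjc1 (1.46-fold) were higher.

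Metabolic genes were divided or near even. Called in either direction were 57.1% of fatty acid oxidation, 32.1% of glucose, 66.7% of fatty acid synthesis and 52% of cholesterol genes. The share over all tested genes was 52.6%, above that of complex I and the 14.8% of ribosomal protein genes. Of 35 genes of respiratory complex I 2 were higher and 0 lower, 5.71% of them, and of 27 cytosolic ribosomal protein genes 4 were higher and 0 lower. DESeq2 called 0 and 0 of these, and Ndufv3, Ndufs7, Rps7, Rpl15, Rpl3 and Rpsa each lost the call in some alternative. Of the ribosomal protein genes 0 were called higher without Nfe2l1 replicate 3 and 2 without Nfya replicate 2. Fatty acid oxidation had 12 higher and 4 lower of 28, with the coactivator gene Ppargc1b 1.41-fold higher and the receptor gene Ppard 1.9-fold and the dehydrogenase gene Acadvl 1.35-fold higher with the Nfe2l1 label, where DESeq2 called 7 higher. Glucose uptake and glycolysis had 4 higher and 5 lower of 28, with the regulator genes Pfkfb2 (-0.55) and Pfkfb3 (-0.44) and the glucose transporter gene Slc2a1 (-0.26) among the lower, which numbered 8 without Nfe2l1 replicate 3. Fatty acid and triglyceride synthesis had 7 higher and 7 lower of 21. There the desaturases Fads1 (0.33) and Fads2 (0.36) were higher and Dgat2, which makes triglycerides, lower (-0.78). Cholesterol synthesis had 8 higher and 5 lower of 25, of which DESeq2 called 1 and 2. Lss, which closes the sterol rings, was lower (-0.40), and leaving out any library but Nfe2l1 replicate 3 left 2 or 3 lower calls.

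Interferon, NF-kB and immediate early genes had more higher than lower calls, and stress and apoptosis lists were nearly even. Of 37 interferon response genes 17 were higher and 5 lower (Ifi44l -0.63, Isg15 -0.48, Ifi44 -0.42, Ifit2 -0.36, Trim25 -0.20), and the lower calls fell to 3 without Nfe2l1 replicate 3 or Nfya replicate 2. The RNA sensor gene Ifih1 was 1.44-fold, Gbp5 2.12-fold and Stat2, of the interferon signal, 1.33-fold higher. GFP lay above both groups for 11 of the 17 higher genes, compared with 33% of all genes called higher. Of 29 NF-kB, chemokine and adhesion genes 13 were higher and 5 lower, with the adhesion genes Icam1 1.57-fold and Vcam1 1.65-fold and the chemokine gene Cx3cl1 1.95-fold higher and Ccl2, which attracts monocytes, 2.07-fold higher with the Nfe2l1 label. Of 25 AP-1 and immediate early genes 8 were higher, among them Nr4a3 (0.93) and Arc (0.87), and 3 lower (Fosl1 -1.33, Junb -0.38, Egr1 -0.29). The share called higher was not far above the 26.3% of all tested genes, and the share called lower was below it. The p53 target list divided evenly, 6 higher and 6 lower of 25, with Tp73 on the higher and Plk3 (-1.25) and the DNA damage sensor gene Xpc (-0.67) on the lower side. Of 23 apoptosis regulators 5 were higher, among them Bok (0.94) and Apaf1 (0.38), and 4 lower (Bid -0.67, Diablo -0.66, Bak1 -0.30, Birc2 -0.26). The p53 and apoptosis lists did not exceed the 26.3% of all tested genes in either direction. Of 10 S100 genes 3 were lower (S100b -1.42, S100a13 -0.89, S100a10 -0.19), and S100pbp, which encodes a protein that binds an S100 protein, was higher (0.16). Both S100a10 and S100pbp lost their call with DESeq2 (adjusted p = 0.135 and 0.122).

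**Figure D5:**
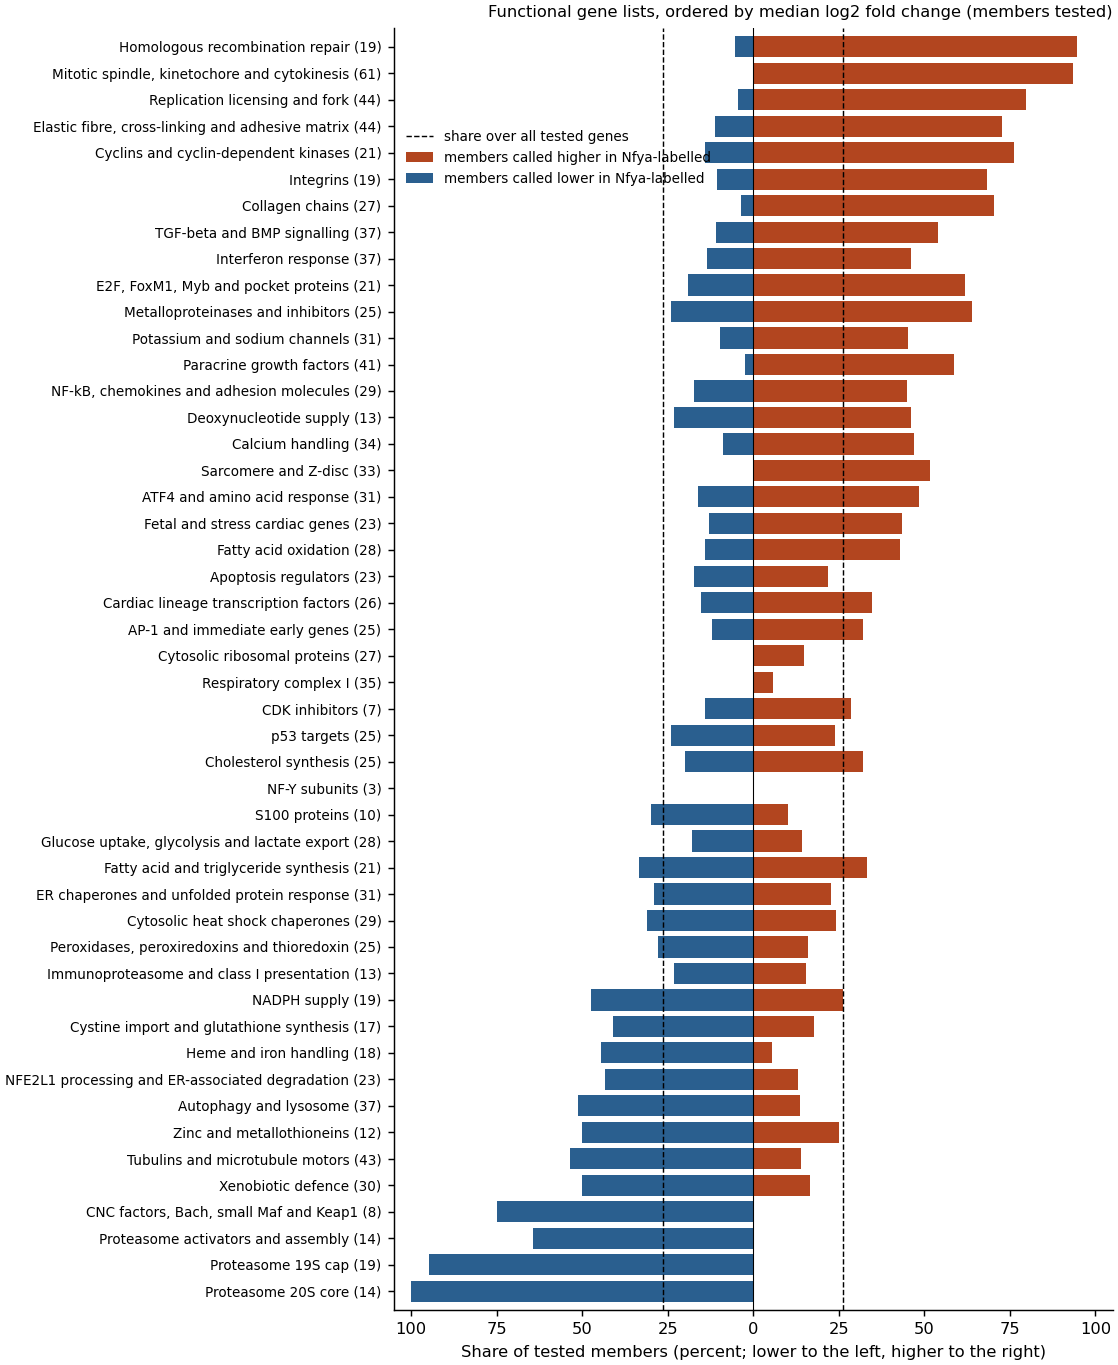
Bars show, for 48 functional lists with the number of tested members in brackets, the percent of members called higher (red, to the right) and lower (blue, to the left), ordered by median log2 fold change. Dashed lines mark the 26.3% of all tested genes called in each direction. Recombination, mitosis and replication lists are at the top and the 20S and 19S proteasome lists at the bottom.

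The largest differences in absolute level were of genes with varied roles. After Vcan, Tnc and Mki67, the rises of largest CPM difference were Fat1, a giant cadherin (1240 ± 7.46 against 1085 ± 25.1 CPM, SD, n = 3 each), Col12a1 (646 ± 12.2 against 502 ± 3.94 CPM, SD, n = 3 each), Fbn1 (616 ± 15.5 against 481 ± 8.75 CPM, SD, n = 3 each), Top2a and Igf2bp3. The falls were led by Map1a, which binds microtubules (720 ± 5.96 against 955 ± 30.2 CPM, SD, n = 3 each), Ubr4, a ubiquitin ligase (means 772 against 999.5 CPM, no overlap), Kif1b, a relative of Kif1a (765 ± 7.01 against 969.6 ± 14.5 CPM, SD, n = 3 each), Ptprn, the Golgi protein gene Golgb1 (239.6 ± 3.51 against 432 ± 7.74 CPM, SD, n = 3 each), the lipid transporter gene Abca2 (145 ± 1.28 against 329 ± 11.5 CPM, SD, n = 3 each), Slc7a11 and the histone acetyltransferase adaptor gene Trrap (379.9 ± 11.7 against 555 ± 13.3 CPM, SD, n = 3 each). Most of these encode long transcripts, which collect more counts than short ones at an equal number of molecules, so the ranking by CPM difference favours them. Several were small in relative terms: Map1a differed by 1.34-fold and Trrap by 1.48-fold, compared with 5.29-fold for Slc7a11.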

How the data were processed

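Per the labels, stranded messenger RNA libraries were made with the KAPA mRNA HyperPrep kit. The authors deposited whole-number counts per gene symbol and RPKM values with gene lengths. Tools in the submitters' processing notes were edgeR 3.20.5, featureCounts 1.6.0 and FastQC 0.11.4, and builds were GRCm38, mm10 and rn6, without their roles. The aligner, the strand setting, the annotation and the treatment of duplicate reads were not given in the sources used here. Hence reads of overlapping and antisense genes cannot be told apart. The deposited comparisons with GFP were not used.

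The counts of the 6 libraries were tested in R 4.3.3 with edgeR 4.0.16 (filterByExpr, TMM scaling, quasi-likelihood F test, Benjamini-Hochberg adjustment over 13830 genes). Each standard error was the size of the log2 fold change divided by the root of its F value, and is too small for large changes in sparse genes. It also lies below the error of counting alone for well-counted genes such as Keap1 and Slc7a11. For Bach1 it was 0.057, against 0.111 with DESeq2, and for Cdkn2b 0.055 against 0.106. The edgeR p-values rest on the same fit and may be too small as well. Settings were tested on data simulated with more spread than counting noise. Replicates of densely covered genes had less, so that test cannot show whether the p-values hold here. Alternatives used DESeq2 1.42.0 and limma 3.58.1 on log2(RPKM + 1) or log2(RPKM + 0.1) of the deposited RPKM values, other scalings and filters, all 9 libraries, a replicate block and leaving out each library.

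The comparison, the 56 gene lists (1375 genes, 1336 found, 1249 tested) and the rule for named genes were chosen with earlier results of these data known. Named were Nfya and Nfe2l1, the 15 largest called changes in each direction with at least 5 CPM in the higher group and no overlap, the 8 largest CPM differences in each direction, and up to 4 called members of each list with the smallest p (up to 2 members where fewer than 2 were called). Other members were named after their values were seen. Promoter windows come from RefSeq's GRCr8 table and were matched by symbol.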

Additional observations from a re-analysis of the deposited data

How the results depend on the processing

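Every call shared with an alternative had the same direction in all 18 alternatives, of which the stricter threshold uses the same fit. Of the 244 named genes that were called 227 stayed called wherever they were tested. Most of them were picked by size or p in these data, so their share does not stand for all calls. Of all 7273 calls, DESeq2 shared 4640 (63.8%). DESeq2 called 2217 genes higher and 2424 lower. At a mean of at least 5 CPM, 259 were called higher and 265 lower by at least 2-fold, and with limma on log2(RPKM + 1) 159 and 300. Leaving out 1 library at a time gave 3255 to 3374 higher and 3297 to 3473 lower genes, 416 to 499 of them at least 2-fold higher and 467 to 544 at least 2-fold lower. Upper-quartile scaling called 4257 higher and 3110 lower. With the replicate number as a block, 3718 genes were higher and 3686 lower, 426 and 493 by at least 2-fold, and no named gene changed its call. For each gene, the log level of a library was taken as its deviation from its group mean. These deviations correlated at 0.051, 0.076 and 0.064 between libraries of the same number over 9527 genes. Each library correlated best with its own number but under 0.1, and nothing in the labels pairs them. Of the list members named after their values were seen, Bmp5, Cdk7, Dut, Ephx2, Fgf9, Ggt7, Hexa, Ifi44l, Os9, Smad4, Tfeb and Trim25 lost their call with DESeq2 and without at least 1 single library (adjusted p = 0.0533 to 0.318), and Atg7, Cmpk1, Edem3, Gdf15, Gpx7, Itga10, Nqo2, Tipin and Trib3 with DESeq2 but on leaving out no library. Without the genes above 0.5 counts per base, an alternative chosen after seeing the data, 7096 genes were called, 7009 of them called in the full set too. The library totals of 6479766 to 7310774 counts limit what can be seen in genes of few counts.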
